A study of Rattus norvegicus with 12 samples.

Results

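The genes described here encode the pore-forming and auxiliary subunits of sodium, potassium and calcium channels. They were chosen by gene symbol alone: a probe set (the group of short probes on the array that measures 1 transcript) was a member where its platform annotation gave 1 symbol and that symbol began with Scn, a number and a or b, with Kcn, or with Cacn. This rule found 178 probe sets of 111 genes, of 31099 probe sets and 14217 genes in all. The 111 genes comprised 12 sodium, 75 potassium and 24 calcium channel genes. Of these genes, 69 had 1 probe set and 42 had several, at most 6, and each gene was represented by its probe set with the highest mean signal.

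RNA of the cerebellum, the spinal cord and the sciatic nerve was measured on Affymetrix rat arrays in male Wistar rats, 25 days old at the start by the sample labels and 3 weeks by the series text. One group of rats received saline and the other acrylamide, an electrophilic monomer that damages long axons, at 30 mg/kg per day by oral gavage for 21 days. Each of the 6 groups of tissue and treatment had 2 arrays, with RNA of 2 rats pooled for each array, so that the p-values measure the spread between pools. Values are signals in arbitrary units, linear in scale. In each list of 4 signals of a tissue the order is saline replicates 1 and 2, then acrylamide replicates 1 and 2. Differences between groups are on the scale log2(signal + 16), given ± their standard error. The tissue comparisons set 4 arrays of a tissue against 4 of another and answer where in the nervous system these genes were read out. The acrylamide comparisons set 2 arrays against 2.

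Voltage-gated sodium channels open the upstroke of the action potential, potassium channels end it and hold the resting potential, and calcium channels couple it to transmitter release and to signalling in the cell body. In myelinated axons the sodium channels cluster at the nodes of Ranvier and shaker-type potassium channels lie beside them under the myelin. The sciatic nerve holds axons, Schwann cells, fibroblasts and vessels but not the cell bodies of its neurons, while the cerebellum is dominated by granule neurons and the spinal cord holds motor neurons, interneurons, astrocytes and white matter. In such whole-tissue RNA, fewer cells of a type and less RNA per cell cannot be told apart.

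The tissue labels were set beside lists of cell type markers. Summed signals of the granule neuron list (8 genes) were 47670 to 51770 in the cerebellum and 2629 to 2925 in the cord, those of the motor neuron list (6 genes) were 9359 to 10350 in the cord and 102.5 to 333.8 in the cerebellum, and those of the Schwann cell list (8 genes, without the member Scn7a) were 69670 to 90730 in the nerve and 4525 to 5022 in the cerebellum. A general neuron list (10 genes) summed to 60270 to 70320 in the cerebellum, 98700 to 104300 in the cord and 6457 to 19040 in the nerve. In the same order an oligodendrocyte list (10 genes) summed to 40230 to 46510, 83510 to 90080 and 40220 to 47690. Most of its nerve sum was Mbp (21840 to 26090) and Cnp (10640 to 14310). Mog (13.83 to 285.9 in the nerve, 1547 to 2106 in the cerebellum), Mobp, Opalin, Ermn and Olig1 were lower in the nerve than in the cerebellum. Mag, Cnp and Sox10 were higher there. A sensory neuron list (7 genes) summed to 448.1 to 682.6, 2290 to 2817 and 514.8 to 655.2. The 2 nerve arrays with replicate number 1 stood apart: the granule neuron list summed to 7475 and 9242 there against 2681 and 2589 on the nerve arrays with number 2, and the Purkinje cell list (7 genes) to 10040 and 12450 against 2353 and 2329. A skeletal muscle list (16 genes) summed to 67600 on the saline replicate 1 array of the cord against 7521 to 8726 on the other cord arrays, and to 35390 on the acrylamide replicate 2 array of the nerve against 5237 to 14190 on the others. A fat cell list (8 genes) summed to 38860 on the saline replicate 1 array of the nerve against 9417 to 15510 on the others. Printed nerve differences that moved by over 1.5 times without both nerve replicate 1 arrays are given with and without them.

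Fewer channel genes were above the filter in the nerve than in the central tissues. A gene entered a test where its mean in a tissue lay above a signal of 110, the 40th percentile of all probe sets. In the spinal cord 64 of the 111 genes did so (57.7%, against 61.1% of all probe sets), in the cerebellum 57 (51.4% of the genes, against 60.6% of all probe sets) and in the sciatic nerve 43 (38.7%, against 58.3%). All 3 tissues were above it for 32 genes (28.8%, against 50.8%), and 18 genes (16.2%, against 4.93% of all probe sets) were above it in the cerebellum and the cord but not in the nerve. In all 74 genes were above it somewhere (66.7%, against 68.8%) and 37 nowhere (33.3%, against 31.2%).

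A gene was called different between tissues at a limma adjusted p under 0.05 and at least a 2-fold difference. Between spinal cord and cerebellum 45 of 71 genes tested were called, where 22.1% of all probe sets tested were, with 17 genes higher in the cord (12.1% of all probe sets) and 28 lower (10.1%). Between sciatic nerve and spinal cord 49 of 68 genes were called, against 26.4% of all probe sets, with 8 higher in the nerve (11% of all probe sets) and 41 lower (15.5%). Between sciatic nerve and cerebellum 53 of 67 genes were called, against 38.2%, with 10 higher in the nerve (17.8% of all probe sets) and 43 lower (20.4%). A gene that entered through the one tissue where it is high tends to be called, so the genes above the filter in both tissues were counted as well. Of these, 30 of 50 were called between cord and cerebellum (16.8% of all such probe sets), 24 of 39 between nerve and cord (19.5%) and 21 of 33 between nerve and cerebellum (28.5%). The median log2 difference of the genes tested was -0.27 from cerebellum to cord, where all probe sets had -0.06, then -1.38 from cord to nerve (all probe sets 0.04) and -2.31 from cerebellum to nerve (all probe sets -0.14). Without both nerve replicate 1 arrays the counts of called genes were 45, 52 and 54.

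Over the 3 pairs, 23 of the 74 genes were called higher in the cerebellum than in both other tissues, where 7.1% of all probe sets were, and 12 were higher in the cord than in both (3.54% of all probe sets). Another 13 genes were lower in the nerve than in both central tissues (7.9%), and 6 were higher in the nerve than in both (8.85%). The cerebellum was below both for Cacna1h and Scn9a (3.79% of all probe sets) and the cord below both for Cacnb3 and Kcnk1 (0.506%). For 6 genes no pair was called (54.1% of all probe sets), and 10 had other combinations (14.2%).

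**Figure D1:**
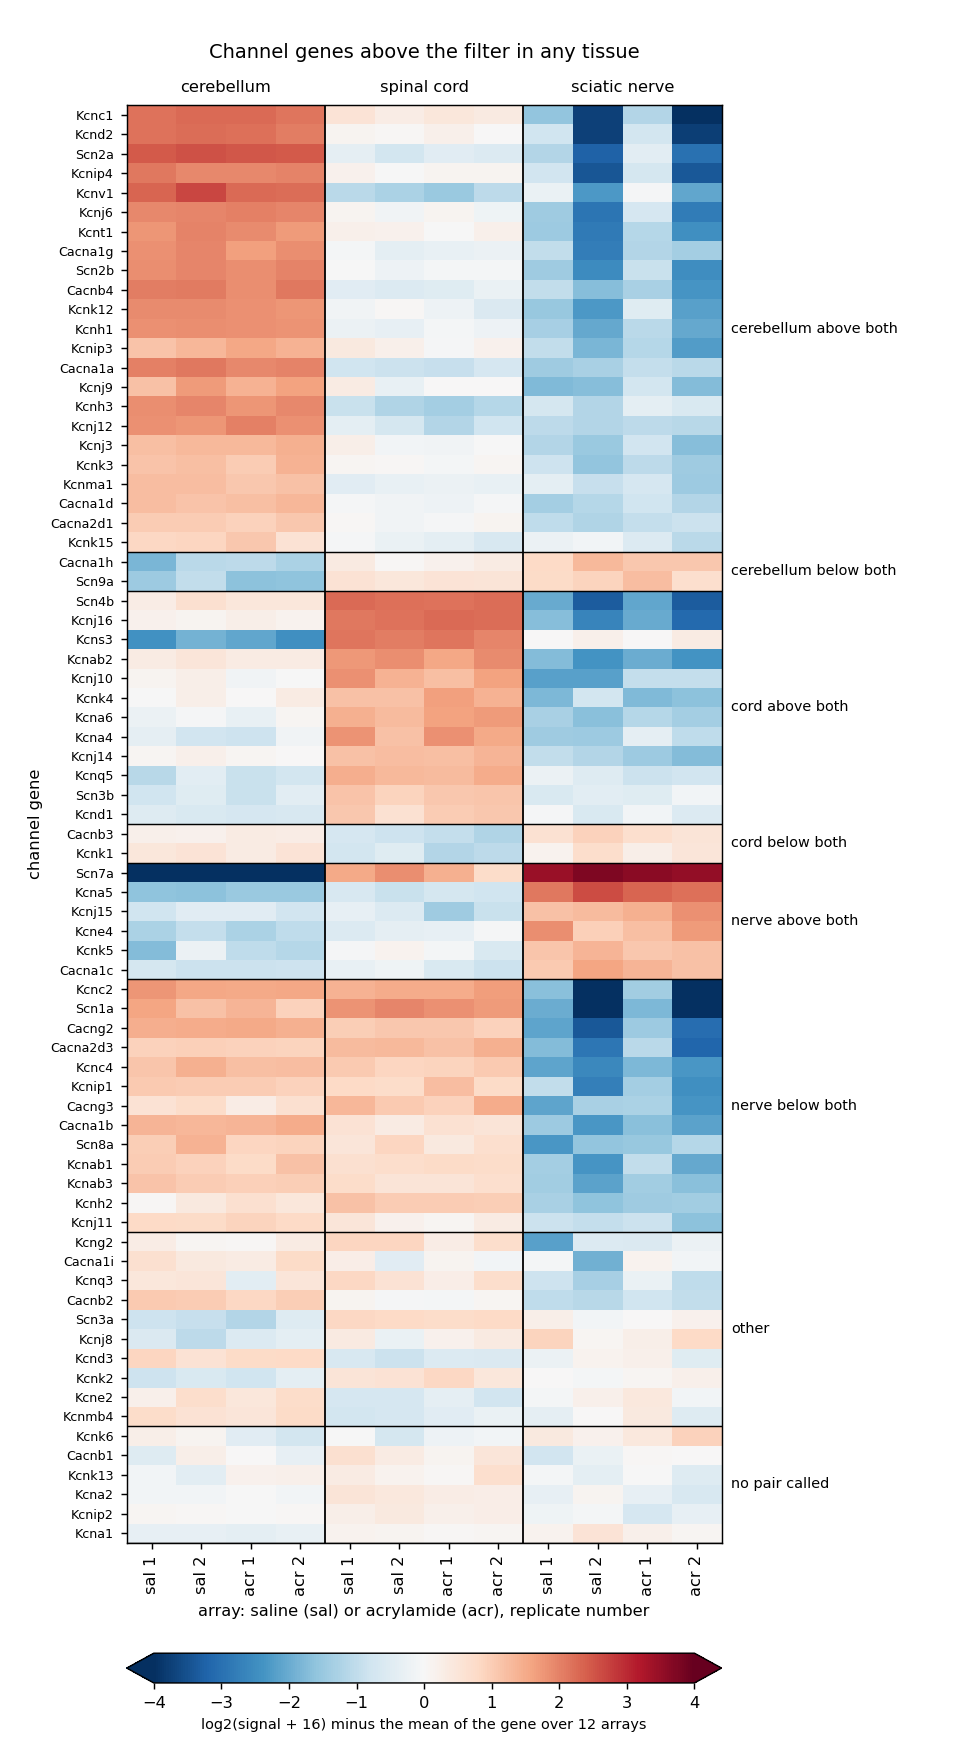
Each row is 1 of the 74 channel genes above the filter in any tissue and each column 1 of the 12 arrays. Colour gives log2(signal + 16) minus the mean of the gene over the 12 arrays, with the scale ending at 4 and -4, and rows are grouped by their tissue pattern: the largest block holds the 23 genes that are highest in the cerebellum, and several genes of the upper and lower blocks are paler in the nerve arrays numbered 1 than in those numbered 2.

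Many of these genes lie next to each other on the chromosomes, most often beside a gene of the same family. In the gene order of the RefSeq annotation of assembly GRCr8, 16 pairs of members had no other protein-coding gene between them. In 8 pairs both genes were above the filter, and in all 8 the neighbours had different tissue patterns, as did 82.5% of all 2701 pairs of the 74 genes, so this count is near the background. Scn2b was highest in the cerebellum and its neighbour Scn4b in the cord. Kcnj9 was highest in the cerebellum and Kcnj10 in the cord. Kcnj6 was highest in the cerebellum and Kcnj15 in the nerve. Kcna5 was highest in the nerve, Kcna1 beside it was called in no pair, and Kcna6 beside that was highest in the cord. The run Scn3a, Scn2a and the run Scn1a, Scn9a, Scn7a also changed pattern at each step.

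The 250 bases before the annotated start of 4 such pairs or near pairs are printed for genes of 1 family that lie close together and differ in tissue pattern. They come from RefSeq in assembly GRCr8 and are written 5′ to 3′ on the strand of the gene. Capitals mark the GC box (GGGCGG or its reverse complement CCGCCC, both strands searched) and the E box (CANNTG, which reads the same on both strands). The positions are chr8:54322133-54322382 on the plus strand for Scn2b, chr8:54343623-54343872 on the plus strand for Scn4b, chr13:87320294-87320543 on the minus strand for Kcnj9, chr13:87334260-87334509 on the plus strand for Kcnj10, chr11:47778349-47778598 on the minus strand for Kcnj6, chr11:48070700-48070949 on the plus strand for Kcnj15, chr4:161043810-161044059 on the minus strand for Kcna5 and chr4:161262353-161262602 on the minus strand for Kcna6.
Scn2b: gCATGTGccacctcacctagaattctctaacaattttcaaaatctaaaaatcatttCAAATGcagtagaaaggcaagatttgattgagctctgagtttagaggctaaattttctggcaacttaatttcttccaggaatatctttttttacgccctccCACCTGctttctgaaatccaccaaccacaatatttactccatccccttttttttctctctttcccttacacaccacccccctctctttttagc
Scn4b: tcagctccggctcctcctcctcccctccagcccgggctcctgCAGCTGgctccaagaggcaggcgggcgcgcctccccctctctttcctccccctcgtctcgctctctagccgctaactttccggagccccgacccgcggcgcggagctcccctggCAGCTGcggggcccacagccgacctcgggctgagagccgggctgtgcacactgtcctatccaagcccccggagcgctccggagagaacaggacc
Kcnj9: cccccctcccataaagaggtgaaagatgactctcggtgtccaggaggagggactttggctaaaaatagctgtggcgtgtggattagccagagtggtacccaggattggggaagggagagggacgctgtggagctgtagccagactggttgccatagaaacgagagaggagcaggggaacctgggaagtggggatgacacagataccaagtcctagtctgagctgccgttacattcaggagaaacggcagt
Kcnj10: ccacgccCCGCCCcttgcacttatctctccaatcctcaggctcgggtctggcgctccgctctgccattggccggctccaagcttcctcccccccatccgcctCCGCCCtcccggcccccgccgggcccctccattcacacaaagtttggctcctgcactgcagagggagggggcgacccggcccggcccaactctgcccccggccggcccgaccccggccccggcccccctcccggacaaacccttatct
Kcnj6: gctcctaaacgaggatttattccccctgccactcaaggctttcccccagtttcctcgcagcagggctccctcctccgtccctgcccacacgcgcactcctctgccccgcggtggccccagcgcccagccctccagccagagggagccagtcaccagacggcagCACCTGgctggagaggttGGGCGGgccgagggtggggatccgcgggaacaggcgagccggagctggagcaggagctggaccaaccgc
Kcnj15: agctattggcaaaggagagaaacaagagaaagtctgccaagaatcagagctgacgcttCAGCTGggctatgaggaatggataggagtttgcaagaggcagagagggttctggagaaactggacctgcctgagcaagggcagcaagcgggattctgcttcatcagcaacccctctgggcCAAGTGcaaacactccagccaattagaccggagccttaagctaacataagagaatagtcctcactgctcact
Kcna5: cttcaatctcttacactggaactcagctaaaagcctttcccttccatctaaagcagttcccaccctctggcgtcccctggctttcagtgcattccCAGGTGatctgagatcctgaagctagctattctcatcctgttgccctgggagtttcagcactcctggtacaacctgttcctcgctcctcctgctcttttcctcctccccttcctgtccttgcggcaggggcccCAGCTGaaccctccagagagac
Kcna6: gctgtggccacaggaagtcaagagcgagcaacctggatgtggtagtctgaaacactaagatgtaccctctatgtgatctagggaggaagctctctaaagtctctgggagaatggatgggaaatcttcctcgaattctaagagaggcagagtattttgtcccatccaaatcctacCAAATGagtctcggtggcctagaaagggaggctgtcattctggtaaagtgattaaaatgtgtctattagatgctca

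The window of Scn2b is 38.8% G and C with 3 E boxes, and that of Scn4b is 71.6% with 2 E boxes. The window of Kcnj9 is 54.8% G and C with neither motif, and that of Kcnj10 is 72.4% with 2 GC boxes. Kcnj6 has 69.2% with a GC box and an E box, while Kcnj15 has 50.8% with 2 E boxes. Kcna5 (54.8%, 2 E boxes) and Kcna6 (45.6%, 1 E box) both lack a GC box.

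A RefSeq promoter window was found for 78 of the 111 genes. For these genes 1 window each was kept, while the set of all windows holds every window listed, without such a choice. The 2 sets are therefore not fully alike. Their median G and C content was 63.6%, where all 33469 windows had 51.2%, and the median ratio of observed to expected CpG was 0.61 against 0.383. A GC box stood in 53.8% of the channel windows and in 30.5% of all, an E box in 60.3% and 65.5%, a TATA box (TATAAA, both strands) in 5.13% and 12.9%, and a CCAAT box (CCAAT, both strands) in 21.8% and 34.0%. No channel window held the full cyclic AMP response element TGACGTCA, which 1.59% of all windows held. The RE1 element is bound by the silencer of neuronal genes REST, and its parts were searched on both strands. TTCAGCACC stood in only 2 channel windows (2.56%, against 0.305% of all) and GGACAGC in 9 (11.5%, against 5.3% of all). By tissue pattern, the median G and C content was 69.2% over 13 genes highest in the cerebellum, 62.4% over 10 highest in the cord and 54.6% over the 6 highest in the nerve, and the observed to expected CpG ratio was 0.753, 0.7 and 0.184. A GC box stood in 9 of those 13, 3 of those 10 and 3 of those 6 windows. The 10 genes lower in the nerve than in both central tissues had a median of 62.8%, with a GC box in 6. The 7 with other combinations had 72.8%, with a GC box in 5, and the 3 called in no pair had 69.6%. High G and C content was therefore not particular to the genes highest in the cerebellum. A match says only that these letters are in the window.

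Of the sodium channel pore subunits, Scn7a was highest in the nerve, Scn2a in the cerebellum, and Scn9a was lowest in the cerebellum. Scn7a encodes Nax, a sodium channel relative that senses extracellular sodium and is expressed by Schwann cells and other glia. Its signals were 20138, 24868, 22408 and 21236 in the nerve, 5315, 6750.1, 4913 and 3092 in the cord and 53.2, 39.4, 35.7 and 47.5 in the cerebellum, where all 4 arrays were under the filter. The 3 tissues did not overlap, and the nerve exceeded the cerebellum by a log2 difference of 8.54 ± 0.16 (adjusted p = 1.11e-09) and the cord by 2.19 ± 0.16 (adjusted p = 2.38e-06). The cord exceeded the cerebellum by 6.35 ± 0.16 (adjusted p = 2.62e-08). The Schwann cell list was likewise 31300 to 40090 in the cord, between its values in the nerve and the cerebellum, and its part in the cord signal was not tested.

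Scn2a, the channel of unmyelinated axons and of immature initial segments, ran the other way. It measured 3365, 3623, 3477 and 3364 in the cerebellum, 465, 359, 435 and 414 in the cord and 263, 50.7, 445 and 61.8 in the nerve. Every cerebellar array exceeded every other, and the cord was lower than the cerebellum by a log2 difference of -3.005 ± 0.55 (adjusted p = 0.00106). The nerve values split by replicate number, and the nerve minus cord difference of -1.43 ± 0.55 (adjusted p = 0.0419; 1.05e-08 to 0.207 over the alternatives) was called in 12 of 28 alternatives. Without both nerve replicate 1 arrays it was -2.59.

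Scn1a, a channel of fast-firing neurons, was not called between the central tissues. It measured 3764, 2863, 3256 and 2368 in the cerebellum, 4415, 4863, 4515 and 4087 in the cord and 307, 54.3, 347 and 43.4 in the nerve. The cord arrays were all above the cerebellar ones, yet the difference of 0.56 ± 0.58 did not pass the test (limma adjusted p = 0.409; 0.000834 to 0.631 over the alternatives). The standard error takes in the nerve arrays, which split by replicate number. Over the 28 alternatives the difference was 0.4465 to 0.675, under the 2-fold minimum. The nerve was lower than the cord by a log2 difference of -4.91 ± 0.58 (limma adjusted p = 5.11e-05) and by -6.11 without both replicate 1 arrays. Scn8a, the channel of adult nodes of Ranvier, was little above the filter in the central tissues, with 188, 254, 171 and 176 in the cerebellum, 127, 172, 118 and 147 in the cord and 4.44, 18.5, 20.2 and 30.5 in the nerve. Cerebellum and cord overlapped, and the nerve lay below both (nerve minus cord -2.24 ± 0.21, adjusted p = 1.14e-05).

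Scn9a and Scn3a were both lowest in the cerebellum. Scn9a, a channel of sensory and sympathetic neurons, measured 24.8, 40.99, 19.5 and 20.5 in the cerebellum, 152, 137, 147 and 144 in the cord and 175, 191, 249 and 163 in the nerve. Cord and nerve both exceeded the cerebellum (cord minus cerebellum 1.95 ± 0.17, adjusted p = 9.27e-06; nerve minus cerebellum 2.32 ± 0.17, adjusted p = 1.33e-06), and nerve minus cord was 0.37 ± 0.17 (adjusted p = 0.0731). Scn3a, the channel most abundant before birth, measured 111, 103, 84.99 and 142 in the cerebellum, 382, 378, 358 and 378 in the cord and 249.8, 195, 211 and 238 in the nerve. Its cord signal was higher than that of the cerebellum by 1.64 ± 0.15 (adjusted p = 1.24e-05), and the nerve lay between them. Scn4a, the channel of skeletal muscle, and Scn10a and Scn11a, channels of nociceptive sensory neurons, were under the filter in all 3 tissues.

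Of the auxiliary beta subunits, which adjust gating and anchor the channels, Scn2b was highest in the cerebellum, and Scn3b and Scn4b were highest in the cord. Scn2b measured 5659, 6037, 5725 and 6245 in the cerebellum, 1542, 1345, 1458 and 1478 in the cord and 573, 261, 837 and 263 in the nerve, and cord minus cerebellum was -2.01 ± 0.33 (adjusted p = 0.00051). Its neighbour Scn4b, whose upstream sequence is printed with it and which supports resurgent sodium current, measured 1476, 1857, 1614 and 1631 in the cerebellum, 5796, 5519.7, 5385 and 5696 in the cord and 283, 105, 270.2 and 104 in the nerve. The cord arrays were all above the cerebellar ones (cord minus cerebellum 1.76 ± 0.31, adjusted p = 0.000797), and the nerve was lower than the cord by a log2 difference of -4.90 ± 0.31 (adjusted p = 1.04e-06), and by -5.54 without both nerve replicate 1 arrays. Scn3b, which binds the pore subunit without a covalent link, measured 170.4, 214, 159 and 227 in the cerebellum, 700.2, 582, 673 and 685 in the cord and 198, 227, 214 and 284 in the nerve. The cord stood above both, and nerve and cerebellum overlapped (0.25 ± 0.14, adjusted p = 0.14).

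**Figure D2:**
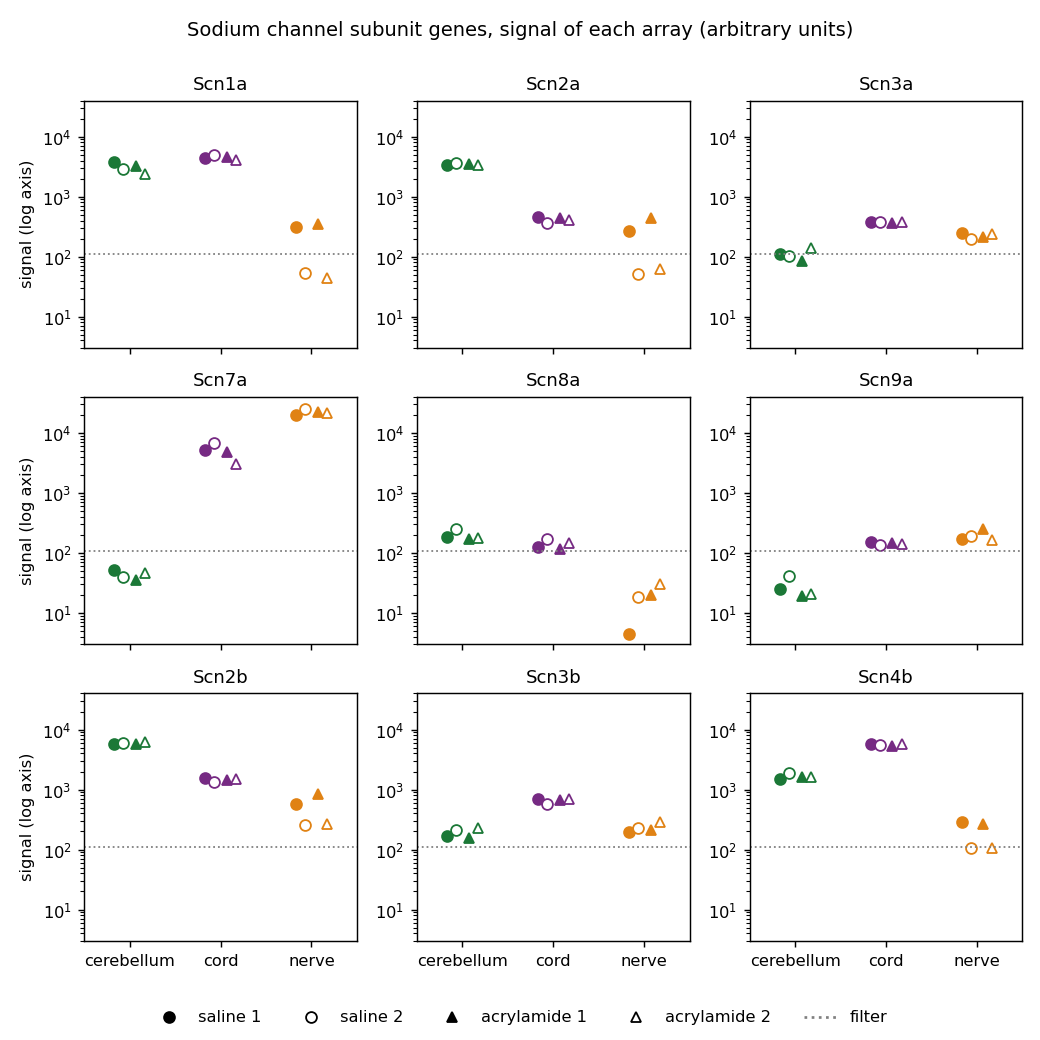
Signal of each array (log axis, arbitrary units) for 9 sodium channel subunit genes in the 3 tissues, with circles for saline, triangles for acrylamide, filled symbols for replicate 1 and open symbols for replicate 2; the dotted line is the filter at 110. Scn7a is highest in the nerve, Scn2a and Scn2b in the cerebellum, and Scn4b and Scn3b in the cord, and the filled nerve symbols of Scn1a, Scn2a, Scn2b and Scn4b stand above the open ones.

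Potassium channels held the largest number of members. Of the 13 Kv genes of the shaker, shab, shaw and shal families, 11 were tested between cord and cerebellum. There 3 were called higher in the cord (12.1% of all probe sets), 3 lower (10.1%) and 5 not called. Between nerve and cord 7 of 11 were called lower in the nerve (15.5% of all probe sets). Kcna1 and Kcna2, the shaker channels that lie beside the nodes under the myelin, were 2 of the 6 genes called in no tissue pair. Kcna1 measured 1806, 1793, 1735 and 1847 in the cerebellum, 2491, 2427, 2368 and 2405 in the cord and 2527, 3310.2, 2619 and 2377 in the nerve. Cord minus cerebellum was 0.43 ± 0.08 (adjusted p = 0.00132), under the 2-fold minimum, and cord and nerve overlapped (0.15 ± 0.08, adjusted p = 0.132). Kcna2 measured 4499, 4547, 4868 and 4582 in the cerebellum, 7017, 6501, 5999.6 and 5909 in the cord and 3857, 5289, 3934 and 3161 in the nerve. Its cord arrays were the highest, and nerve minus cord was -0.67 ± 0.10 (adjusted p = 0.000278), again under 2-fold.

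Kcna5, a shaker channel of Schwann cells and smooth muscle, was higher in the nerve than in both central tissues. It measured 913, 1316, 1074 and 980.1 in the nerve, 123, 101, 117 and 108 in the cord and 54.9, 53.2, 61.03 and 61.96 in the cerebellum, where all 4 arrays were under the filter. The nerve exceeded the cord by 3.07 ± 0.13 (adjusted p = 1.59e-07) with no overlap. Kcna6 and Kcna4 were highest in the cord. Kcna6 measured 1266, 1144, 1450.3 and 1568 in the cord, 392, 449, 376 and 491 in the cerebellum and 180.3, 135, 200.4 and 172 in the nerve, with cord minus cerebellum 1.63 ± 0.12 (adjusted p = 3.83e-06; up to 0.102 over the alternatives), a call lost with its second probe set, where the difference was 0.75. Kcna4, a fast inactivating channel, measured 160.4, 98.7, 164 and 128 in the cord, 12.5 to 29.5 in the cerebellum and 2.40 to 23.3 in the nerve, the last under the filter on all arrays.

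The shaw channels, which repolarize fast-firing neurons, and the shal channel Kcnd2, an A-type channel of granule neurons, were among the genes with the largest fall to the nerve. Kcnc1 measured 7304, 7849.7, 7746 and 7180.4 in the cerebellum, 2345, 1973, 2230.3 and 2066 in the cord and 529.7, 105, 711 and 83.95 in the nerve. Kcnd2 measured 4112, 4296, 4231 and 3830.4 in the cerebellum, 971, 941, 1047 and 918 in the cord and 511, 53.4, 533 and 52.4 in the nerve. For both genes the tissues did not overlap, and the nerve arrays numbered 1 stood several-fold above those numbered 2. The model takes 1 spread per gene from all tissues, the nerve included. Cord minus cerebellum was -1.80 ± 0.60 for Kcnc1 (adjusted p = 0.024; 4.33e-09 to 0.104 over the alternatives) and -2.07 ± 0.70 for Kcnd2 (adjusted p = 0.0252; 1.22e-09 to 0.113). Both were called in 17 of 28 alternatives. Without both nerve replicate 1 arrays the adjusted p values were 9.63e-09 and 3.84e-09 with unchanged differences. Nerve minus cord was -3.04 for Kcnc1 and -4.30 without those arrays, and -2.35 for Kcnd2 and -3.84 without them.

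Other shaw and shal genes had their own patterns. Kcnc2 and Kcnc4 did not differ past the test between the central tissues (cord minus cerebellum -0.08 ± 0.73 and -0.27 ± 0.14) and were lower in the nerve than in the cord by a log2 difference of -4.60 ± 0.73 (adjusted p = 0.000364) and -3.17 ± 0.14 (adjusted p = 2.11e-07). Kcnc2 measured 1266, 1335, 1349.9 and 1553 in the cord and 136, 1.60, 169 and 5.57 in the nerve, where the mean was under the filter and the arrays split by replicate number. Without both nerve replicate 1 arrays its nerve minus cord difference was -6.15, and other probe sets of Kcnc2 above the filter gave -2.40 and -2.74 with all arrays. Kcnd1 was highest in the cord at 284 to 405, against 108 to 123 in the cerebellum and 114 to 177 in the nerve. Kcnd3 was highest in the cerebellum at 1517 to 1859, against 554 to 684 in the cord and 723 to 1182 in the nerve, and only its cord minus cerebellum difference (-1.40 ± 0.15, adjusted p = 4.1e-05) was called.

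The electrically silent subunits form no channel alone and alter the shab channels they join. Kcns3 was higher in the cord than in both other tissues. It measured 1375, 1296, 1363 and 1213 in the cord, 304, 350.1, 305 and 378 in the nerve and 42.7, 69.5, 58.1 and 41.8 in the cerebellum, so that the tissues did not overlap and the cerebellum lay under the filter, where the size of a difference rests on dim signals. The cord exceeded the cerebellum by 4.28 ± 0.14 (adjusted p = 7e-08), and nerve minus cord was -1.93 ± 0.14 (adjusted p = 2.96e-06). Kcnv1 was higher in the cerebellum, with 854, 1081, 814 and 797 in the cerebellum, 66.1, 55.1, 45.9 and 66.2 in the cord and 128, 18.7, 151 and 24.9 in the nerve, and cord minus cerebellum -3.60 ± 0.49 (adjusted p = 0.000178). Kcng2 passed the filter in the cord alone and was lower in the nerve by a log2 difference of -1.55 ± 0.31 (adjusted p = 0.00162). The other silent genes on the array (Kcng3, Kcns1, Kcns2 and Kcnv2) were under it everywhere.

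Kcnq5, a subunit of the M-type current that damps repetitive firing, was higher in the cord than in the other tissues. It measured 382, 341, 333 and 385 in the cord, 50.5, 91.1, 61.4 and 71.1 in the cerebellum and 105, 85.8, 63.6 and 69.3 in the nerve, and cord minus cerebellum was 2.17 ± 0.16 (adjusted p = 4.26e-06). Kcnq3, its partner in that current, passed the filter in the cord alone, with 172, 142, 111 and 155 in the cord and 129, 132, 62.8 and 131 in the cerebellum. These overlapped (0.34 ± 0.25, adjusted p = 0.255; 0.0282 to 0.692 over the alternatives), and a second probe set gave the opposite sign, -1.02.

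In the eag, erg and elk families 3 of 8 genes passed the filter (68.8% of all probe sets). All 3 were called lower in the nerve than in the cerebellum (20.4% of all probe sets). Kcnh3, an elk channel of neurons, measured 1263, 1349, 1193 and 1329.8 in the cerebellum, 174, 137, 122 and 145 in the cord and 203, 142, 253 and 216 in the nerve. Cord and nerve overlapped, and cord minus cerebellum was -3.02 ± 0.13 (adjusted p = 1.88e-07). Kcnh1, the eag channel, was lower at each step, from 1044 to 1093 in the cerebellum to 227 to 274 in the cord and 57.01 to 128 in the nerve. Kcnh2, the erg channel, was higher in the cord (479, 432, 428 and 424) than in the cerebellum (212, 274, 325 and 288) by less than 2-fold, and lower in the nerve (73.8, 56.5, 65.7 and 67.2).

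Of the auxiliary potassium channel genes, 9 of 11 were tested, and 6 were called lower in the nerve than in the cord (15.5% of all probe sets). Kcnab2, the beta subunit that carries shaker channels to axons, measured 3345, 3664, 2959 and 3736 in the cord, 1266, 1416, 1252 and 1253 in the cerebellum and 293, 178, 242 and 180.0 in the nerve. Cord minus cerebellum was 1.39 ± 0.15 (adjusted p = 4.44e-05), with 0.77 on each of 2 other probe sets but -0.56 on another. Kcnab1 and Kcnab3 did not differ past the test between the central tissues and were lower in the nerve than in the cord by a log2 difference of -2.39 ± 0.26 (adjusted p = 2.79e-05) and -2.26 ± 0.17 (adjusted p = 2.48e-06).

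The calcium-binding KChIP genes, partners of the shal channels, did not move as a block. Kcnip4 measured 5173, 4531, 4488 and 4752 in the cerebellum, 1331, 1159, 1272 and 1262 in the cord and 687, 94.6, 717 and 98.8 in the nerve. It was highest in the cerebellum as its partner Kcnd2 was, with the same split between nerve arrays, and cord minus cerebellum was -1.90 ± 0.63 (adjusted p = 0.0233; 2.82e-09 to 0.108 over the alternatives, called in 17 of 28). Kcnip3 was also highest in the cerebellum (1318, 1483, 1758 and 1572; cord minus cerebellum -1.17 ± 0.24, adjusted p = 0.00229). Kcnip1 did not differ past the test between the central tissues (-0.13 ± 0.36) and was lower in the nerve than in the cord by a log2 difference of -2.76 ± 0.36 (adjusted p = 0.000101), and by -3.47 without both nerve replicate 1 arrays. Kcnip2 was called in no pair, with 259, 257, 243 and 251 in the cerebellum, 294, 324, 282 and 298 in the cord and 215, 232, 149 and 192 in the nerve. Kcne4, a member of the small MinK family that inhibits shaker channels, was highest in the nerve at 755, 401, 478 and 674, against 131, 150.1, 154 and 192 in the cord and 72.9, 94.95, 72.95 and 89.2 in the cerebellum (nerve minus cord 1.75 ± 0.21, adjusted p = 5.21e-05).

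**Figure D3:**
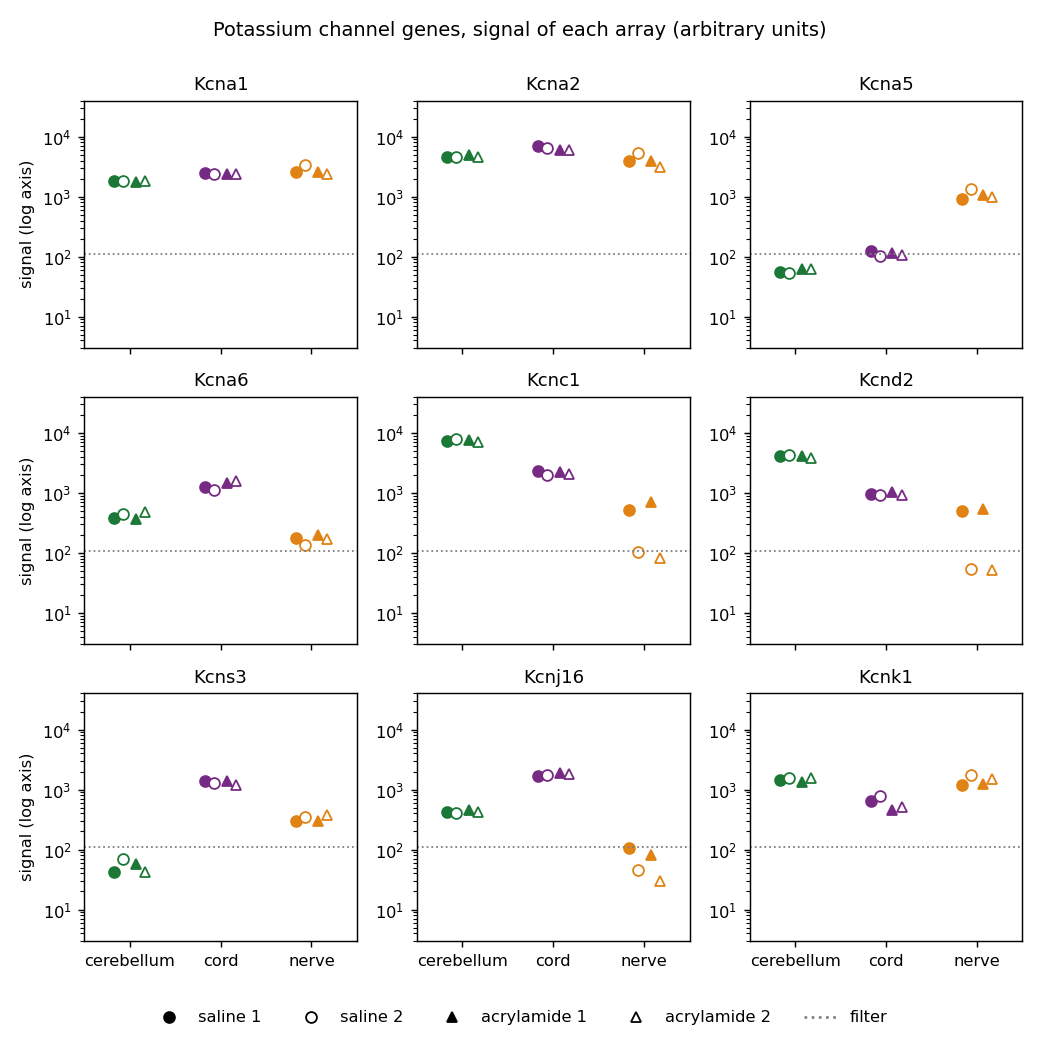
Signal of each array (log axis, arbitrary units) for 9 potassium channel genes in the 3 tissues, with circles for saline, triangles for acrylamide, filled symbols for replicate 1 and open symbols for replicate 2; the dotted line is the filter at 110. Kcna1 and Kcna2 stay within 2-fold over the tissue means, Kcna5 is highest in the nerve, Kcna6, Kcns3 and Kcnj16 in the cord, and Kcnc1 and Kcnd2 in the cerebellum with filled nerve symbols above the open ones.

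Kcnj10 and Kcnj16, which form the potassium-buffering channel of astrocytes, were both highest in the cord. Kcnj16 measured 1674, 1741, 1861 and 1837 in the cord, 421, 409, 448 and 416 in the cerebellum and 105, 46.2, 80.9 and 29.8 in the nerve. The tissues did not overlap, with cord minus cerebellum 2.03 ± 0.25 (adjusted p = 8.72e-05) and nerve minus cord -4.56 ± 0.25 (adjusted p = 4.89e-07). Kcnj10 measured 322, 235, 206 and 277 in the cord, 86.9, 95.1, 70.4 and 79.3 in the cerebellum and 5.28, 5.11, 33.2 and 33.5 in the nerve (cord minus cerebellum 1.47 ± 0.16, adjusted p = 3.58e-05). The astrocyte list (8 genes) summed to 68370 to 75500 in the cord, 53060 to 57940 in the cerebellum and 33870 to 36090 in the nerve. Most of the nerve sum was S100b (22380 to 27960). Every other gene of the list was lower on all nerve arrays than on all cord arrays. Aqp4, for example, measured 1499, 93.28, 2362 and 87.24 in the nerve and 13100 to 16040 in the cord. Slc1a3 was higher in the cerebellum (12370 to 14200) than in the cord (2626 to 3149).

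The G-protein-gated rectifiers Kcnj3, Kcnj6 and Kcnj9, which slow firing after transmitter binding, were all highest in the cerebellum. Kcnj6 measured 1505, 1521, 1607 and 1537 in the cerebellum, 413, 348, 409 and 334 in the cord and 134, 36.9, 234 and 41.2 in the nerve, and cord minus cerebellum was -1.997 ± 0.44 (adjusted p = 0.00304). Kcnj9, the neighbour of the cord gene Kcnj10, measured 163, 246, 191 and 228 in the cerebellum, 83.4, 48.3, 64.3 and 65.3 in the cord and 7.37, 8.43, 31.7 and 8.19 in the nerve (-1.46 ± 0.25, adjusted p = 0.000754). Kcnj3 fell from 532 to 626 in the cerebellum to 200.4 to 269 in the cord and 57.8 to 125 in the nerve. One other probe set of Kcnj3 gave the opposite sign in the nerve, 0.45 against the cord and 0.57 against the cerebellum.

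Of the remaining rectifiers, Kcnj12, a strong rectifier of the kind that sets resting potential, passed the filter in the cerebellum alone, with 323, 308, 370.3 and 326 there, 56.9, 43.1, 26.2 and 39.02 in the cord and 30.2, 25.98, 29.8 and 27.9 in the nerve. Kcnj14, described in motor neurons, was highest in the cord at 855, 894, 889.8 and 995, against 400.0, 438, 394 and 383 in the cerebellum and 182, 156, 125 and 101 in the nerve (nerve minus cord -2.58 ± 0.09, adjusted p = 9.9e-08). Kcnj15 passed the filter in the nerve alone at 102, 112, 126 and 171, against 3.67 to 25.6 in the cord, all under the filter (nerve minus cord 2.23 ± 0.21, adjusted p = 1.32e-05). Of the pore subunits of the ATP-sensitive channel, Kcnj8, the form of vessel walls, was higher in the nerve than in the cerebellum (1.15 ± 0.23, adjusted p = 0.00116), and Kcnj11, the neuronal form, was lower (-1.89 ± 0.16, adjusted p = 4.56e-06). The probe set of Kcnj11 has the suffix _s, which marks probes shared by several transcripts.

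The 2-pore-domain channels carry the background leak, and they fell into several patterns. Kcnk1 was lowest in the cord, with 645, 768, 464 and 509 there, 1462, 1577, 1352 and 1578 in the cerebellum and 1187, 1743, 1261 and 1498 in the nerve. The cord arrays lay under all others (cord minus cerebellum -1.32 ± 0.13, adjusted p = 1.83e-05; nerve minus cord 1.24 ± 0.13, adjusted p = 2.08e-05), and nerve and cerebellum overlapped. Kcnk4, a mechanically gated leak channel, passed the filter in the cord alone at 133, 134, 191 and 159, against 49.5, 62.5, 51.2 and 67.2 in the cerebellum and 3.31 to 23.8 in the nerve. Kcnk2, its relative, was higher in the cord (395 to 517) than in the cerebellum (154 to 212) by 1.25 ± 0.13 (adjusted p = 2.55e-05), with 268 to 326 in the nerve. Kcnk3, an acid-inhibited leak channel, and Kcnk12 were highest in the cerebellum, at 687 to 889 and 298 to 333. Their cord minus cerebellum differences were -1.16 ± 0.17 and -2.06 ± 0.34. Kcnk5 passed the filter in the nerve alone (166, 202, 163 and 175 against 65.5, 77.1, 62.98 and 39.3 in the cord; 1.34 ± 0.29, adjusted p = 0.00274).

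All 3 tested genes of the calcium- and sodium-activated channels were called lower in the cord than in the cerebellum (10.1% of all probe sets). Kcnma1, the large-conductance channel, measured 919.8, 905, 816 and 880.2 in the cerebellum, 271, 302, 316 and 305 in the cord and 281, 194, 232 and 127 in the nerve. Cord and nerve overlapped, and cord minus cerebellum was -1.51 ± 0.17 (adjusted p = 5.52e-05). Kcnmb4, its neuronal beta subunit, measured 788, 711, 670.4 and 809 in the cerebellum, 274, 292, 339 and 393 in the cord and 366, 474, 616 and 327 in the nerve, with cord minus cerebellum -1.17 ± 0.18 (adjusted p = 0.000362) and overlapping cord and nerve. Kcnt1, the sodium-activated channel, fell from 1495 to 1811 in the cerebellum to 437 to 522 in the cord and 48.97 to 192 in the nerve.

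Of the 7 calcium channel pore subunit genes compared between nerve and cerebellum, 2 were called higher in the nerve (17.8% of all probe sets) and 5 lower (20.4%). Cacna1a, the P/Q-type channel of Purkinje cells and nerve terminals, measured 879.5, 941, 826 and 864 in the cerebellum, 113, 109, 102 and 125 in the cord and 67.6, 75.5, 99.6 and 89.04 in the nerve. The cerebellum stood apart from both (-2.80 ± 0.10 for cord minus cerebellum, adjusted p = 8.17e-08), while the cord lay near the filter and the nerve under it. Cacna1b, the N-type channel, was less uneven between the central tissues, with 799, 782, 805 and 865 in the cerebellum and 462, 379.6, 464 and 439.9 in the cord (-0.88 ± 0.19, adjusted p = 0.0024, under 2-fold), and lower in the nerve at 100.1, 47.1, 83.5 and 56.5.

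Cacna1c, the L-type channel of smooth muscle, fibroblasts and neurons, was the only calcium channel gene called higher in the nerve than in both other tissues. It measured 1266, 1831, 1558 and 1386 in the nerve, 482, 531, 391 and 324 in the cord and 364, 324, 325 and 333 in the cerebellum, with nerve minus cord 1.78 ± 0.12 (adjusted p = 1.66e-06). The fibroblast and endothelium list (9 genes) summed to 103700 to 123500 in the nerve, 22060 to 32060 in the cord and 5261 to 6554 in the cerebellum. Cacna1d, the other neuronal L-type gene, was highest in the cerebellum at 382 to 435, against 140.1 to 161 in the cord and 55.2 to 88.8 in the nerve.

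The T-type genes, which open at low voltage, went opposite ways. Cacna1g measured 943, 1011, 827 and 956 in the cerebellum, 236, 189.7, 202 and 212 in the cord and 118, 23.1, 103 and 87.9 in the nerve, with cord minus cerebellum -2.07 ± 0.31 (adjusted p = 0.000306). Cacna1h, the T-type channel of sensory neurons, measured 30.2, 62.4, 63.3 and 52.9 in the cerebellum, 194, 152, 170.1 and 189.9 in the cord and 271, 389, 332 and 331 in the nerve, with no overlap of the 3 tissues and cord minus cerebellum 1.52 ± 0.19 (adjusted p = 9.46e-05). Cacna1i was near the filter in the cerebellum (104 to 148) and lower in the nerve (75.9, 9.54, 89.5 and 73.8). Nerve minus cerebellum was -1.01 ± 0.36 (limma adjusted p = 0.0273), just past the 2-fold minimum. The saline replicate 2 array of the nerve was far below the other nerve arrays, and this difference was not recomputed without it.

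Cacna2d1, the alpha-2-delta subunit that binds gabapentin, measured 676, 676, 627 and 706 in the cerebellum, 336, 294, 313 and 349.8 in the cord and 151, 133, 160.4 and 172 in the nerve, each step near 2-fold (-1.02 ± 0.09 and -0.998 ± 0.09). Cacna2d3 did not differ past the test between the central tissues (0.37 ± 0.40, limma adjusted p = 0.437), though the cord arrays (964 to 1137) lay above the cerebellar ones (787 to 826). It was lower in the nerve, at 113, 41.4, 188 and 31.96. These nerve arrays split by replicate number, and their spread enters that standard error. The beta subunit Cacnb4, whose loss causes ataxia in mice, measured 763, 789, 669.7 and 809 in the cerebellum, 122, 114, 120.3 and 141 in the cord and 78.9, 41.8, 61.7 and 21.2 in the nerve (-2.47 ± 0.24 for cord minus cerebellum, adjusted p = 1.83e-05). Cacnb3 was lowest in the cord at 487, 436, 404 and 335, against 909.6, 890.3, 993 and 977 in the cerebellum and 1211, 1509.6, 1270.2 and 1127 in the nerve, so that nerve minus cord was 1.59 ± 0.09 (adjusted p = 7.59e-07). Cacnb2 was lower by a little under 2-fold at each step (-0.95 ± 0.09 and -0.99 ± 0.09), and Cacnb1 was called in no pair.

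Of the 8 gamma genes, 2 passed the filter (68.8% of all probe sets). Cacng2 encodes stargazin, which delivers AMPA receptors to synapses, and measured 1235, 1259, 1286 and 1194 in the cerebellum, 879, 946, 942 and 845 in the cord and 88.8, 27.5, 150.1 and 38.6 in the nerve. The central tissues did not overlap but differed by only -0.46 ± 0.35 (limma adjusted p = 0.267), with the split nerve arrays included in that standard error. The nerve was lower than the cord by a log2 difference of -3.52 ± 0.35 (limma adjusted p = 1.63e-05) and by -4.24 without both nerve replicate 1 arrays. Its other probe set above the filter gave -0.90, under the 2-fold minimum, so the call is lost with it. Cacng3, its relative, measured 159.5 to 245 in the cord, 99.1 to 138 in the cerebellum and 2.09 to 23.1 in the nerve.

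**Figure D4:**
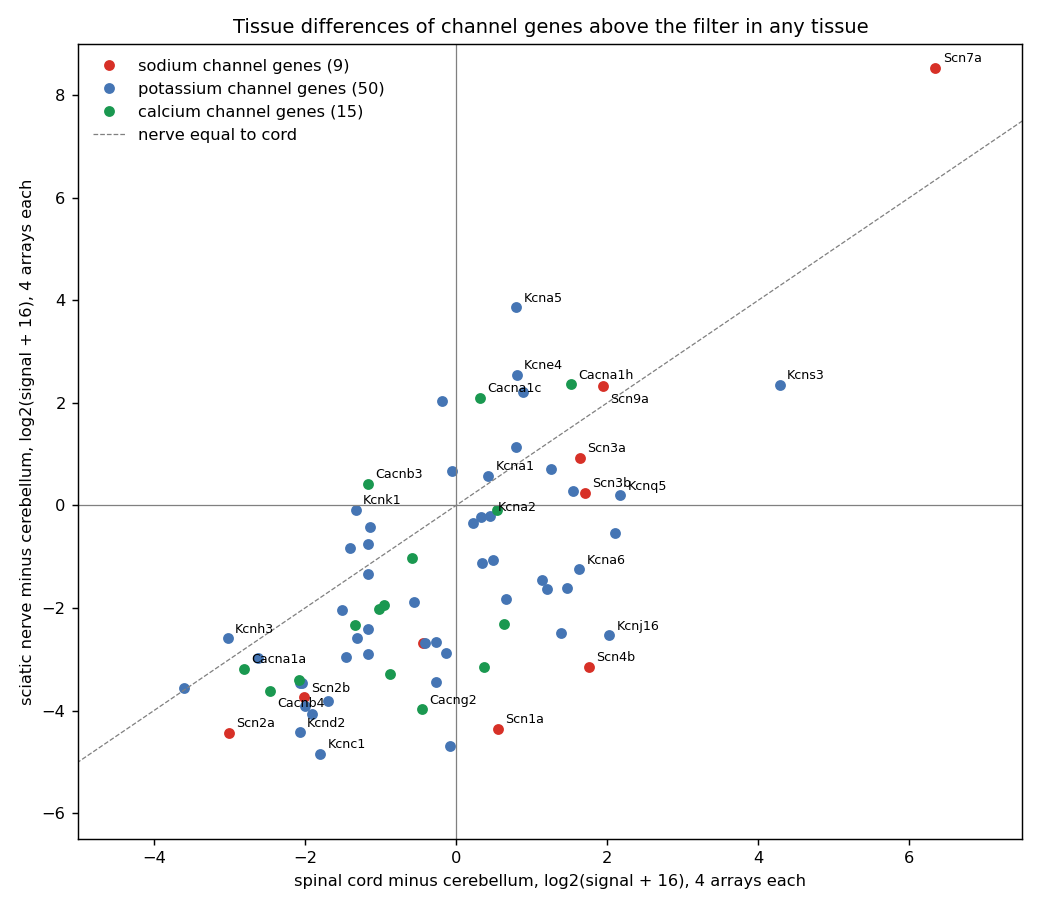
Each point is 1 of the 74 channel genes above the filter in any tissue, with spinal cord minus cerebellum on the horizontal axis and sciatic nerve minus cerebellum on the vertical axis, both as differences of mean log2(signal + 16) over 4 arrays each. Points under the dashed line were lower in the nerve than in the cord, Scn7a is at the upper right with 6.35 and 8.54, and both axes share the cerebellar arrays, so the trend of the cloud is no result.

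The nerve signal of several genes that were higher in a central tissue depended on the array. For a first count, 46 members were above the filter on both nerve replicate 1 arrays. Of these, 13 (28.3%) had both such arrays at least 2-fold above both replicate 2 arrays, against 2.75% of all such probe sets. Entry to this set required high replicate 1 signals, which works against the reverse order, so no reverse count is read from it. Over all 74 members, which enter without regard to replicate number, the count was 15 (20.3%, against 3.7% of all probe sets). None of the 74 went the other way (0.0984% of all probe sets). The 13 were Cacna2d3, Kcnc1, Kcnc2, Kcnd2, Kcnip1, Kcnip4, Kcnj6, Kcnt1, Kcnv1, Scn1a, Scn2a, Scn2b and Scn4b. By pattern 8 of them were highest in the cerebellum, 4 were lower in the nerve than in both central tissues, and Scn4b was highest in the cord. For Kcnd2 the nerve arrays numbered 1 reached 12.7% of its cerebellar mean and those numbered 2 reached 1.29%, and for Kcnip4 the shares were 14.8% and 2.04%. The granule neuron, Purkinje cell and general neuron lists moved with the same arrays, the last with 17350 and 19040 against 7651 and 6457. The astrocyte sums did not (34420 and 36090 against 33870 and 34120), nor did the oligodendrocyte sums. Single genes of both lists did, such as Aqp4 (1499 and 2362 against 93.28 and 87.24) and Mog (285.9 and 273.7 against 13.83 and 16.33). The part of these cell types in the channel signals was not tested. Nerve minus cord went from -3.52 to -4.33 for Cacna2d3, from -2.11 to -2.78 for Kcnt1 and from -1.73 to -2.40 for Scn2b without those arrays. No call was lost among the tissue differences of these genes that were recomputed without the replicate 1 arrays.

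The 37 genes under the filter everywhere included Cacna1e, Kcna3, Kcnb2, Kcnj2, Kcnn3, Kcnq1, Scn4a, Scn10a and Scn11a. For these the arrays give no usable comparison, and a dim signal does not show absence. Among them Cacna1s and Cacng1, subunits of the skeletal muscle calcium channel, were dim except on 2 arrays. Cacna1s measured 179, 3.96, 5.25 and 3.91 in the cord and 7.29, 3.57, 5.61 and 76.4 in the nerve. Cacng1 measured 87.1, 1.85, 1.46 and 6.90 and 6.73, 1.03, 5.87 and 66.9. The high arrays were the saline replicate 1 array of the cord and the acrylamide replicate 2 array of the nerve, the same 2 on which the skeletal muscle list was highest, and its part was not tested.

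For members with several probe sets, another probe set above the filter gave the direction of the called one in 20 of 21 cases between cord and cerebellum, 18 of 19 between nerve and cord and 28 of 29 between nerve and cerebellum. The exceptions were Kcnab2 and Kcnj3, given above. In the same order, 15, 23 and 17 other probe sets lay under the filter and are not in these counts. Most of them had the direction of the called one, but some did not. For Kcnq5 between nerve and cord and Kcnk2 between cord and cerebellum, no other probe set had the called direction. Sizes differed more: another probe set gave cord minus cerebellum -1.102 for Cacna1a and -0.50 for Kcnt1, where the chosen ones gave -2.80 and -1.70. Of the chosen probe sets 12 have the suffix _a, which marks probes shared by transcripts of 1 gene.

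No channel gene changed with acrylamide past the threshold. By limma with Benjamini-Hochberg adjustment 0 of 57 genes tested in the cerebellum, 0 of 64 in the spinal cord and 0 of 43 in the sciatic nerve were called; the shares of all probe sets were 0%, 0% and 0.00553%. On the average over the 3 tissues 0 of 32 were called (0.0127% of all probe sets), and in the F test of whether the difference varied between tissues 0 of 74 (0%). At an unadjusted p under 0.05 there were 0 genes in the cerebellum (2.71% of all probe sets), 4 in the cord (2.87%), 4 in the nerve (5.1%), 1 on the average (5.49%) and 3 in the F test (2.75%). Both acrylamide arrays lay on 1 side of both saline arrays for 21 of 57 genes in the cerebellum (36.8%, against 33.7% of all probe sets), 20 of 64 in the cord (31.2%, against 33.6%) and 9 of 43 in the nerve (20.9%, against 26.3%). The median difference of the members was -0.03, 0.0017 and 0.02 in the cerebellum, cord and nerve, and their median standard error was 0.27, 0.26 and 0.24. All probe sets tested had smaller median standard errors, 0.1605, 0.161 and 0.1564. The members' tests were therefore less sensitive than those of the probe sets whose shares stand beside them.

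In the spinal cord the genes with the smallest p were lower with acrylamide, though not past the threshold. Scn7a measured 5315 and 6750.1 with saline and 4913 and 3092 with acrylamide (-0.62 ± 0.22, limma adjusted p = 1). Cacna1c measured 482 and 531 with saline and 391 and 324 with acrylamide (-0.49 ± 0.17, limma adjusted p = 1). Kcnk1 measured 645 and 768 with saline and 464 and 509 with acrylamide (-0.52 ± 0.18, limma adjusted p = 1), and Cacnb3 measured 487 and 436 with saline and 404 and 335 with acrylamide (-0.31 ± 0.13). The arrays of these 4 genes did not overlap, and all 4 were higher in the nerve than in the cord. The Schwann cell list, without Scn7a, moved with them: it summed to 38220 and 40090 with saline and 32360 and 31300 with acrylamide in the cord, and the fibroblast and endothelium list to 32060 and 29860 against 26050 and 22060. Their part in these differences was not tested. Kcna6 leaned the other way (1266 and 1144 with saline, 1450.3 and 1568 with acrylamide, 0.32 ± 0.17), and its second probe set gave -0.01.

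In the sciatic nerve Kcnj14, the rectifier that was highest in the cord, had the smallest p of the members. It measured 182 and 156 with saline and 125 and 101 with acrylamide (-0.52 ± 0.13, limma adjusted p = 0.827), with no overlap and signals near the filter. In the other tissues its differences were -0.10 ± 0.13 and 0.10 ± 0.13. Kcnip2 measured 215 and 232 with saline and 149 and 192 with acrylamide (-0.37 ± 0.14, limma adjusted p = 0.946). Kcnh3 measured 203 and 142 with saline and 253 and 216 with acrylamide (0.43 ± 0.18, limma adjusted p = 0.97).

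The axonal shaker genes were the members whose call in the nerve depended on the arrays used. Kcna2 measured 3857 and 5289 with saline and 3934 and 3161 with acrylamide, and Kcna1 measured 2527 and 3310.2 with saline and 2619 and 2377 with acrylamide. The saline replicate 2 array was the highest and the acrylamide replicate 2 array the lowest for both genes, and the groups overlapped for both. The differences were -0.36 ± 0.14 (limma adjusted p = 0.97) and -0.21 ± 0.12 (limma adjusted p = 0.986). Without both replicate 1 arrays, which leaves 1 nerve array per treatment whose spread is assumed to equal that of the other groups, they were -0.74 (limma adjusted p = 0.00521; 0.00521 to 1 over the alternatives) and -0.47 (limma adjusted p = 0.0329; 0.0329 to 1), and 381 of all probe sets were called in that fit. In the cord Kcna2 differed by -0.18 ± 0.14 and in the cerebellum by 0.06 ± 0.14.

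In the cerebellum the smallest p of a member was that of Kcnh2, with 212 and 274 with saline and 325 and 288 with acrylamide (0.32 ± 0.17, limma adjusted p = 1). Scn8a measured 188 and 254 with saline and 171 and 176 with acrylamide (-0.30 ± 0.29), and Cacna1a measured 879.5 and 941 with saline and 826 and 864 with acrylamide (-0.10 ± 0.14). In the F test between tissues the smallest p belonged to Kcnj10 (limma adjusted p = 1), whose signals in the nerve were 5.28 and 5.11 with saline and 33.2 and 33.5 with acrylamide, all under the filter. With 2 arrays against 2, a p that misses the threshold does not show that the groups were alike.

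**Figure D5:**
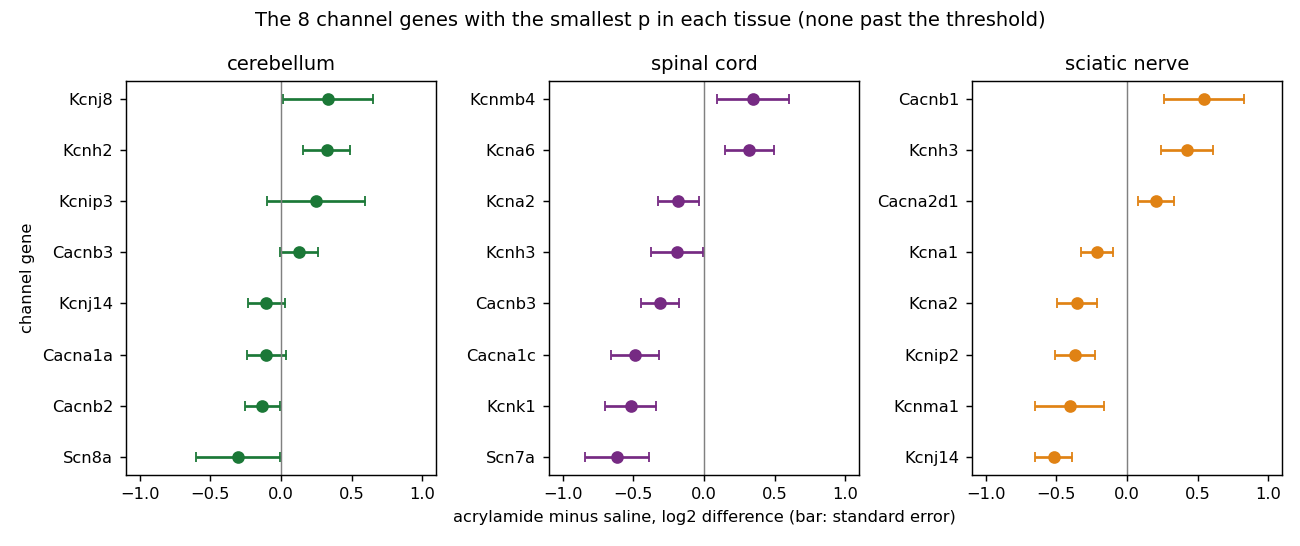
Difference acrylamide minus saline (log2(signal + 16), bars are standard errors of the limma model, 2 arrays against 2) for the 8 channel genes with the smallest p in each tissue. None of these genes passed the adjusted threshold, and the differences lie between -0.62 for Scn7a in the cord and 0.54 for Cacnb1 in the nerve.

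Genes that work with the channels were set beside them as lists. Of 25 genes of the node and initial segment on the array, 5 were called between cord and cerebellum (2 higher in the cord, 3 lower), near the 22.1% of all probe sets, and between nerve and cord 2 were higher in the nerve and 11 lower, where 26.4% of all probe sets were called. Nerve minus cord was -3.51 for Sptbn4, the spectrin that anchors nodal channels, -3.89 for Cntn1 and -3.14 for Cntnap1, which seal the paranodes, and -3.41 for Fgf13, which modulates sodium channels. Without both nerve replicate 1 arrays these were -4.47, -4.69, -3.91 and -3.9998, an alternative chosen after seeing the data. Ank3, the ankyrin that binds sodium channels, differed by -0.14. Dpp6 and Dpp10, partners of the shal channels, were lower in the nerve than in the cerebellum by a log2 difference of -4.05 and -3.45 (-5.16 and -4.35 without those arrays). Itpr1 and Itpr3, calcium release channels, went opposite ways from cerebellum to cord (-3.99 and 3.10). Of the sodium pump genes, Atp1b1 was lower in the nerve than in the cord by a log2 difference of -3.98 (-5.33 without those arrays), and Fxyd6, a regulator of the pump, was higher by 2.14. None of the 19, 19 and 6 genes of the 3 lists tested in the nerve was called with acrylamide, nor any in the other tissues.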

How the data were processed

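Per the labels, biotinylated cRNA from RNA purified with a lipid tissue kit was hybridised to Affymetrix rat arrays, and right and left sciatic nerves were taken. The authors deposited 1 table of signal intensity per probe set and array, on a linear scale. Per the submitters' processing notes the software was GCOS 1.1. Which algorithm, background step and scaling target it ran with is not given in the sources used. Each array's trimmed mean (2% left out at each end) is 499.997, so the deposited intensities are already scaled, and array medians run from 161.8 to 199.0. Probe sets were named from the platform annotation (20826 with 1 symbol, 436 with several, 9780 with none).

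From these, log2(signal + 16) was fitted for 21347 probe sets with limma 3.58.1 in R 4.3.3, 1 mean per group, empirical Bayes with trend, and Benjamini-Hochberg adjustment over all probe sets tested. A probe set entered where its mean in either tissue compared passed the 40th percentile (signal 110). Scripts were tested on simulated data. Arrays carry no read depth, so their number limits the precision, and the pseudocount understates differences of dim genes. Whether the pools of a group came from separate dosing rounds is not stated. The members and all lists (gene families, cell type markers, node, other cation channels, pump) were chosen with earlier results of these data known. Genes were named by size of difference, by smallest p for acrylamide and by role. The labels give the age as 25 days or 3 weeks, the control as saline or solvent, and collection as after 21 days of dosing or 21 days after treatment. Alternatives covered normalization, pseudocount, filter, variance model, threshold, replicate block, probe set and the arrays used. No group has enough arrays to test for outlying samples.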

Additional observations from a re-analysis of the deposited data

How the results depend on the processing

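The counts of called genes moved by less than 1.5 times in 204 of 207 recomputations. The exceptions came without both sciatic nerve replicate 1 arrays, where acrylamide gave 2 called genes in the nerve (381 of all probe sets), 1 on the average (197) and 1 in the F test (98), and each nerve arm is then 1 array. Leaving out 1 array at a time gave 41 to 45 called genes between cord and cerebellum, 46 to 51 between nerve and cord, 52 to 55 between nerve and cerebellum, and 0 to 0 for all acrylamide results. No label ties the replicate numbers to a shared litter or day. Within a tissue, the replicate 1 minus 2 deviations of saline and of acrylamide arrays correlated by 0.0921 in the cerebellum, -0.086 in the cord and 0.3292 in the nerve. In the nerve the arrays numbered 1 share the signal described above. These correlations cannot tell whether same-numbered arrays of different tissues came from the same rats. That was not tested, and the tissue comparisons treat the arrays as independent. With the replicate number as a block the counts were 45, 49 and 53, and 0 for acrylamide. Of 4611 recomputed differences of named genes, 4500 kept direction and side of the threshold, 79 lost the call, 27 gained one and 5 changed sign. The sign changed for Kcnq3 between cord and cerebellum with its second probe set (-1.02), for Kcnk1, nerve minus cerebellum, with median centring (0.0861), without the saline replicate 1 array of the nerve (0.0549) and without both replicate 1 arrays (0.12), with -0.2192 to 0.0549 when 1 array was left out, and for Kcna6 in the cord with acrylamide with its second probe set (-0.0086). The cause was not tested. Probe sets near the background limit what the nerve values of dim genes show.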
